A study of Homo sapiens with 12 samples.

Results

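The genes described here are 10 components of the canonical Wnt pathway, the transcription factors TCF7L2, TCF7, LEF1 and TCF7L1, the target genes AXIN2, RNF43, NKD1 and ASCL2, and the secreted antagonists DKK1 and SFRP1. They were taken by name, without a threshold on measured values, and each has 1 row among the 34595 genes with a value. Gene expression was profiled in 3 gastric cancer (GC) cell lines, KATO-III, SNU-216 and SNU-601, each sorted by flow cytometry into CD133+ and CD133- cells, with 2 arrays for each of the 6 populations. CD133, encoded by PROM1, is a membrane protein used as a marker of stem-like cancer cells, and the sort kept the brightest and the dimmest tails of the CD133 staining. All cells were grown in the same serum-containing medium and none was treated with an agent. The only stated differences between the groups are cell line and CD133 fraction. Each group is an established line, and whether the 2 arrays of a population came from separate sorts is not stated. The array labels name SNU-216, whereas the design text of the series names SNU201 in its place.

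In canonical Wnt signaling, secreted Wnt ligands bind Frizzled and LRP receptors, and beta-catenin is then spared from a cytoplasmic destruction complex. Beta-catenin enters the nucleus and binds TCF/LEF factors, which otherwise hold their targets repressed together with Groucho corepressors. Many of the targets feed back on the pathway. AXIN2 is a scaffold of the destruction complex, RNF43 is a membrane ubiquitin ligase that removes Frizzled from the cell surface, and NKD1 binds Dishevelled. DKK1 blocks the LRP receptors and SFRP1 captures Wnt ligands. In the gut epithelium the pathway is known for sustaining stem cells, and ASCL2 is a transcription factor of intestinal stem cells.

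The DNA letters that TCF/LEF factors recognize hold the core CTTTGA or CTTTGT, and both were searched on both strands in the 250 bases before each annotated start. RefSeq promoter windows (GRCh38.p14) were at hand for 6 of the 10 genes, with 10 windows in all. DKK1 and RNF43 are shown because both differed between the fractions and between the lines, in unlike ways. The windows run 5′ to 3′ on the strand of the gene, DKK1 at chr10:52314031-52314280 on the plus strand and RNF43 at chr17:58417535-58417784 on the minus strand, and capitals mark the matches.
DKK1: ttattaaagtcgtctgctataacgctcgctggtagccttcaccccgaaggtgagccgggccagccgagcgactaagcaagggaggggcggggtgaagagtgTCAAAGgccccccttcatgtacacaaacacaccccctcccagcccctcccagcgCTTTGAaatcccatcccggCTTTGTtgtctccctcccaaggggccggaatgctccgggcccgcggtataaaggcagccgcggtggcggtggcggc
RNF43: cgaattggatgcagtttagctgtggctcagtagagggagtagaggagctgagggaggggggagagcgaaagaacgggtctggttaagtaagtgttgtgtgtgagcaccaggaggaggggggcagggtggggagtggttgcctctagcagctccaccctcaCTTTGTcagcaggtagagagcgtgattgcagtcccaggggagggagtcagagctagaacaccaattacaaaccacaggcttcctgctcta
The DKK1 window holds CTTTGA, or its reverse complement TCAAAG, at -149 and -95, and CTTTGT at -76, counted to the first letter of the match with -1 as the base before the start. The RNF43 window holds a single CTTTGT at -90, and a further RNF43 window, at chr17:58402722-58402971 and not shown, holds ACAAAG at -135. CTTTGA or TCAAAG occurred in 11.2% of the 35116 windows of this length, at least 2 times in 0.977% of them, and CTTTGT or ACAAAG in 13.7%. The windows differ in composition, with 62.8% G or C and 18 CpG in DKK1 and 56.0% and 4 in RNF43. A match describes these letters and not binding, which was not measured here.

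The deposited intensities are linear and have a background subtracted, so that a gene without signal scatters around 0 and can be negative. A floor of 32.7 was taken from the 1st percentile of the matrix (-32.7) as a measure of that scatter, lower values were raised to it before log2 was taken, and the 20147 genes that exceeded it on 2 or more arrays were tested. A gene was called where the limma adjusted p (Benjamini-Hochberg over all genes tested) was under 0.05. On an array 16320 to 16474 genes lay above the floor, and the median intensity of an array was between 26.0 and 27.1. PROM1 checked the sort: its intensity was 9513 and 8847 in KATO-III CD133+ cells and 4056 and 4493 in CD133- cells, 9273 and 8773 against 2232 and 2219 in SNU-216, and 4877 and 4677 against 1315 and 1324 in SNU-601. All CD133+ arrays of a line were above all its CD133- arrays. The 8 epithelial marker rows, among them EPCAM and its former symbol TACSTD1, were all tested, with summed intensities of 65542 to 79027 on an array. Of 9 stromal markers 6 were under the floor on every array (COL3A1, PDGFRB, DCN, THY1, PECAM1 and CDH5), and so were the leukocyte and lymphocyte markers PTPRC, CD3E, CD3D and MS4A1 among 8 immune markers.

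Of the 10 genes, 7 were tested. TCF7L2, ASCL2 and DKK1 were above the floor on all 12 arrays, AXIN2 on 9, NKD1 and RNF43 on 8, and TCF7L1 on 2, so that TCF7L1 passed the filter only through the population in which it was high. LEF1, SFRP1 and TCF7 were not tested. Their low signal is that of the array's probes, and the sources used here do not say how several probes were merged into 1 row.

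**Figure D1:**
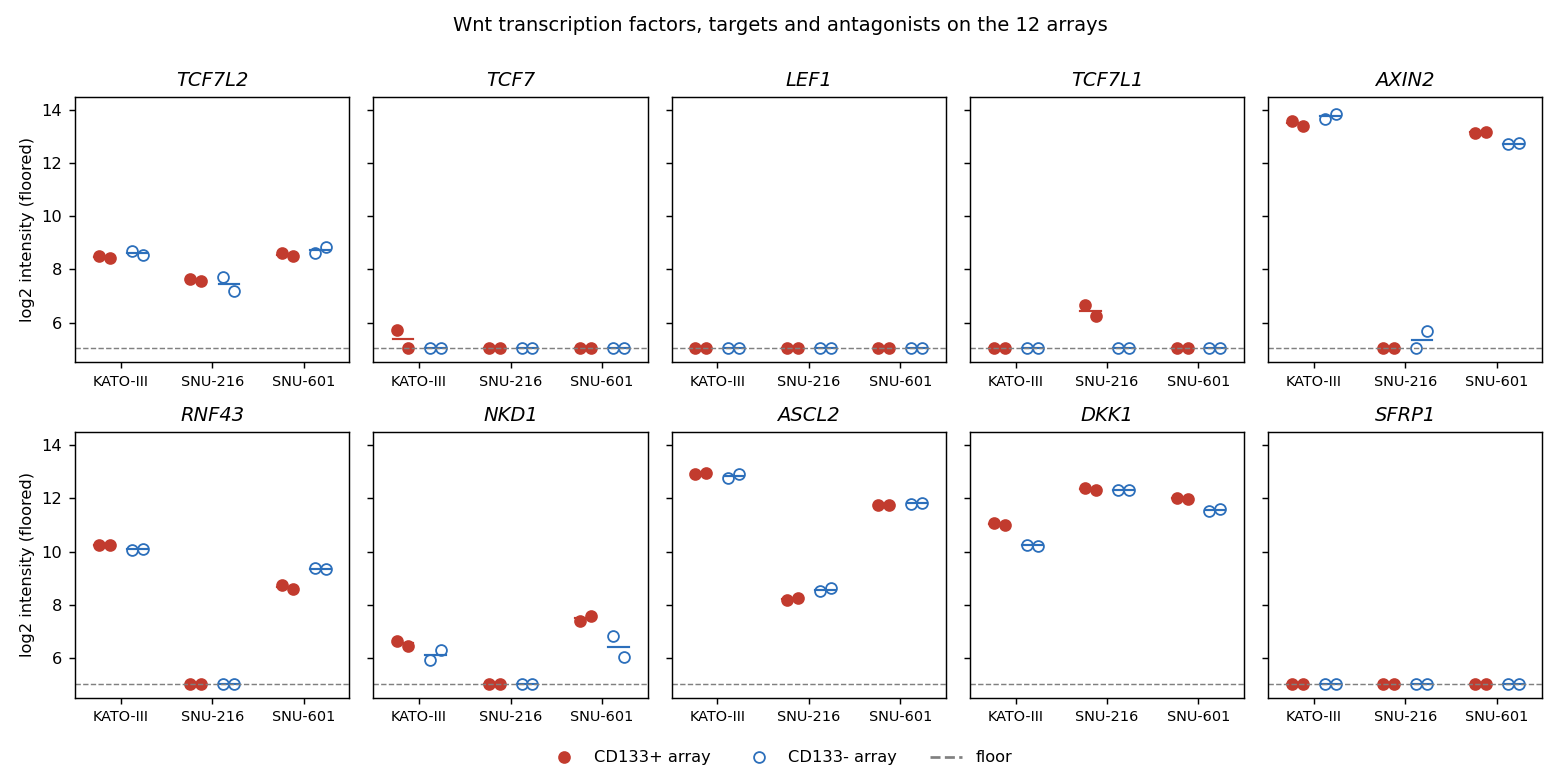
Log2 intensity after the floor (y axis) of each of the 10 genes on the 12 arrays, by cell line (x axis). Filled points are CD133+ arrays, open points CD133- arrays, short lines the mean of the 2 arrays of a population, and the dashed line the floor of 32.7 on the log2 scale. AXIN2, RNF43 and NKD1 lie at or near the floor in SNU-216, and DKK1 is lowest in KATO-III.

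Among the transcription factors, TCF7L2 was the only one with signal in all 6 populations. TCF7L2 is the main TCF factor of the gut epithelium. Its intensity was 366 and 347 in KATO-III CD133+ cells and 413 and 373 in CD133- cells, 202 and 188 against 207 and 146 in SNU-216, and 391 and 364 against 394 and 456 in SNU-601. The fractions overlapped in SNU-216 and lay close together without overlap in the other lines, and all SNU-216 arrays were below all arrays of the other lines. The mean level over both fractions was 2.03-fold higher in KATO-III than in SNU-216 (log2 difference 1.02, SE 0.110, adjusted p = 2.66e-05) and 2.17-fold higher in SNU-601 than in SNU-216 (adjusted p = 1.37e-05). Between KATO-III and SNU-601 the log2 difference was -0.10 with a 95% interval from -0.35 to 0.15 (adjusted p = 0.490). Within the lines the log2 changes from CD133- to CD133+ were -0.14, 0.16 and -0.17 in KATO-III, SNU-216 and SNU-601 (adjusted p = 0.556, 0.546 and 0.571). The 95% intervals were -0.49 to 0.21, -0.19 to 0.51 and -0.52 to 0.19, all of which hold 0. The F-test for a difference of the change between the lines gave an adjusted p of 0.419, and 0.0385 without SNU-216 CD133- replicate 1.

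TCF7L1, which acts mainly as a repressor, had signal in 1 population. Its intensity was 101 and 75.4 in SNU-216 CD133+ cells and 4.74 and 32.1 in SNU-216 CD133- cells, the latter at the edge of the floor. In KATO-III it was between -22.6 and 9.64, and in SNU-601 between -17.9 and -1.55. In SNU-216 it was at least 2.67-fold higher in CD133+ than in CD133- cells, a bound because both CD133- arrays were at the floor. This is a description, since the gene entered the tests only through these 2 CD133+ arrays, and its change in the other lines has no value because all their arrays were at the floor.

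TCF7 and LEF1, activating factors that are themselves Wnt targets, were near 0. TCF7 was 52.0 and 29.7 in KATO-III CD133+ cells, of which only the first is above the floor, 4.98 and 7.13 in KATO-III CD133- cells, and between -8.22 and -0.263 in the other lines. LEF1 was under the floor throughout, from -6.63 in SNU-601 to 27.3 in KATO-III CD133+ cells, where the other array gave 1.17. No order can be read from values under the floor.

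AXIN2, the feedback scaffold often taken as the readout of canonical Wnt activity, had large signals in KATO-III and SNU-601 and almost none in SNU-216. Its intensity was 12250 and 10881 in KATO-III CD133+ cells and 13014 and 14814 in CD133- cells. In SNU-601 it was 9052 and 9312 in CD133+ cells and 6741 and 6881 in CD133- cells. In SNU-216 it was -3.40 and -1.29 in CD133+ cells and -6.42 and 50.8 in CD133- cells, so that 1 array of 4 was above the floor. The log2 difference was 8.44 (SE 0.119, adjusted p = 1.52e-11) for KATO-III minus SNU-216, at least 347-fold, and -7.76 for SNU-216 minus SNU-601, at least 217-fold higher in SNU-601 (adjusted p = 2.72e-11). KATO-III was 1.60-fold higher than SNU-601 (log2 difference 0.68, adjusted p = 0.000843), and this call was lost with a floor of 16 (adjusted p = 0.0725).

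Between the fractions AXIN2 had log2 changes of opposite sign in KATO-III and SNU-601, neither of them called. The log2 change was -0.27 in KATO-III (95% interval -0.65 to 0.12, adjusted p = 0.264) and 0.43 in SNU-601 (0.05 to 0.81, adjusted p = 0.127), although in both lines the arrays of the fractions did not overlap. The tests depend on the SNU-216 CD133- pair, whose arrays stood on both sides of the floor and widened the spread shared by all populations. Without either of these arrays the same changes, -0.27 and 0.43, were called. SNU-216 then added nothing to that spread, since both its CD133+ arrays were at the floor and 1 CD133- array was left. This lowered the SE of AXIN2 in those fits. In SNU-216 itself the log2 change was -0.32 (adjusted p = 0.214), and -0.64 without CD133- replicate 1, when only the array above the floor was left in that fraction. The F-test for a difference of the change between the 3 lines called AXIN2 (adjusted p = 0.0483), and the call was lost without any 1 of the 10 arrays other than these, with adjusted p from 0.0724 to 0.144. The difference of the changes, KATO-III minus SNU-601, was -0.70 (SE 0.238, adjusted p = 0.0555). It was called with an offset of 100 in place of the floor (adjusted p = 0.0222) and with a floor of 100 (0.000554). That floor set all SNU-216 arrays equal, so that they added nothing to the spread. The difference was also called without either SNU-216 CD133- array, with the SE lowered in the same way.

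RNF43 was higher in KATO-III than in SNU-601 and under the floor in SNU-216, and its change with CD133 differed between KATO-III and SNU-601. Its intensity was 1224 and 1228 in KATO-III CD133+ cells and 1077 and 1099 in CD133- cells, and 425 and 388 against 660 and 653 in SNU-601. In SNU-216 all 4 arrays were between -31.7 and -8.99. In SNU-601 it fell by 0.69 on the log2 scale in CD133+ cells (SE 0.0768, adjusted p = 0.000794), 1.62-fold, whereas in KATO-III the log2 change was 0.17 (95% interval -0.00218 to 0.35, adjusted p = 0.113), which was called with a floor of 100 (adjusted p = 0.0424) or with no filter (0.0236). KATO-III minus SNU-601, the difference between these changes was 0.86 (SE 0.109, adjusted p = 0.000481), a comparison chosen after the values in SNU-216 were seen. It held without each array in turn, with adjusted p from 0.000760 to 0.00279. RNF43 was 2.24-fold higher in KATO-III than in SNU-601 (adjusted p = 9.36e-08), at least 35.3-fold higher in KATO-III than in SNU-216 and at least 15.8-fold higher in SNU-601 than in SNU-216.

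NKD1 also lacked signal in SNU-216, and in the other lines it was close to the floor. Its intensity was 99.3 and 87.7 in KATO-III CD133+ cells against 60.2 and 79.3 in CD133- cells, 170 and 189 against 112 and 65.9 in SNU-601, and between -18.3 and -11.4 in SNU-216. In both lines with signal the CD133+ arrays were above the CD133- arrays. NKD1 rose 2.09-fold in CD133+ cells of SNU-601 (log2 change 1.06, SE 0.239, adjusted p = 0.0174), and in KATO-III the log2 change was 0.43 (95% interval -0.11 to 0.98, adjusted p = 0.199). The SNU-216 arrays were all set to the same floor and added nothing to the spread shared by the populations. This lowered the SE of NKD1, and that of RNF43 in the same way. The difference of these changes, KATO-III minus SNU-601, was -0.63 (adjusted p = 0.211), and -1.01 (adjusted p = 0.0221) without SNU-601 CD133- replicate 1. The call in SNU-601 was lost without CD133+ replicate 1, CD133+ replicate 2 or CD133- replicate 2 of that line (adjusted p = 0.0592, 0.0905 and 0.0685) and with no filter (0.0722), and the change was 0.68 to 1.44 without a single array. NKD1 was 1.55-fold higher in SNU-601 than in KATO-III (adjusted p = 0.0102), at least 2.46-fold higher in KATO-III than in SNU-216 (adjusted p = 0.000106) and at least 3.80-fold higher in SNU-601 than in SNU-216 (adjusted p = 6.16e-06).

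ASCL2 was measured well above the floor everywhere and followed the order KATO-III, SNU-601, SNU-216. Its intensity was 7802 and 7937 in KATO-III CD133+ cells and 7050 and 7696 in CD133- cells, 3437 and 3478 against 3559 and 3629 in SNU-601, and 293 and 308 against 368 and 392 in SNU-216. No 2 populations overlapped. ASCL2 was 22.5-fold higher in KATO-III than in SNU-216 (log2 difference 4.49, SE 0.0382, adjusted p = 7.38e-13), 10.4-fold higher in SNU-601 than in SNU-216 (adjusted p = 3.68e-12) and 2.16-fold higher in KATO-III than in SNU-601 (adjusted p = 1.19e-08). In SNU-216 it fell by 0.34 on the log2 scale in CD133+ cells (SE 0.0540, adjusted p = 0.00169), 1.26-fold. In KATO-III the log2 change was 0.10 (95% interval -0.03 to 0.22, adjusted p = 0.212) and in SNU-601 -0.06 (-0.18 to 0.07, adjusted p = 0.594).

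The secreted antagonist DKK1 had the opposite order of the lines, with SNU-216 highest. Its intensity was 5431 and 5047 in SNU-216 CD133+ cells and 5115 and 5126 in CD133- cells. In SNU-601 it was 4177 and 4066 in CD133+ cells and 2975 and 3082 in CD133- cells, and in KATO-III 2169 and 2062 against 1225 and 1200. Only the fractions of SNU-216 overlapped, and the other populations were each separate from their neighbors. DKK1 was 3.23-fold lower in KATO-III than in SNU-216 (log2 difference -1.69, SE 0.0337, adjusted p = 1.53e-10), 2.21-fold lower in KATO-III than in SNU-601 (adjusted p = 4.36e-09) and 1.47-fold higher in SNU-216 than in SNU-601 (adjusted p = 4.36e-07).

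DKK1 was the gene of the 10 that rose in CD133+ cells of more than 1 line. It rose 1.74-fold in KATO-III (log2 change 0.80, SE 0.0477, adjusted p = 4.57e-06) and 1.36-fold in SNU-601 (0.44, SE 0.0477, adjusted p = 0.000710). In SNU-216 the log2 change was 0.03, with a 95% interval from -0.08 to 0.14 (adjusted p = 0.736) that leaves out the changes of both other lines. The rise in KATO-III exceeded that in SNU-601 by 0.36 on the log2 scale (SE 0.0675, adjusted p = 0.00392). The calls in KATO-III and SNU-601 held in all 12 fits without a single array and under all 9 other settings tried. In bulk RNA a larger share of cells with the transcript and more of it per cell cannot be told apart.

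SFRP1, the other secreted antagonist, was under the floor on all 12 arrays, from -16.2 in KATO-III CD133- cells to 23.7 in SNU-216 CD133- cells, where the other array gave -13.0. It was not tested.

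**Figure D2:**
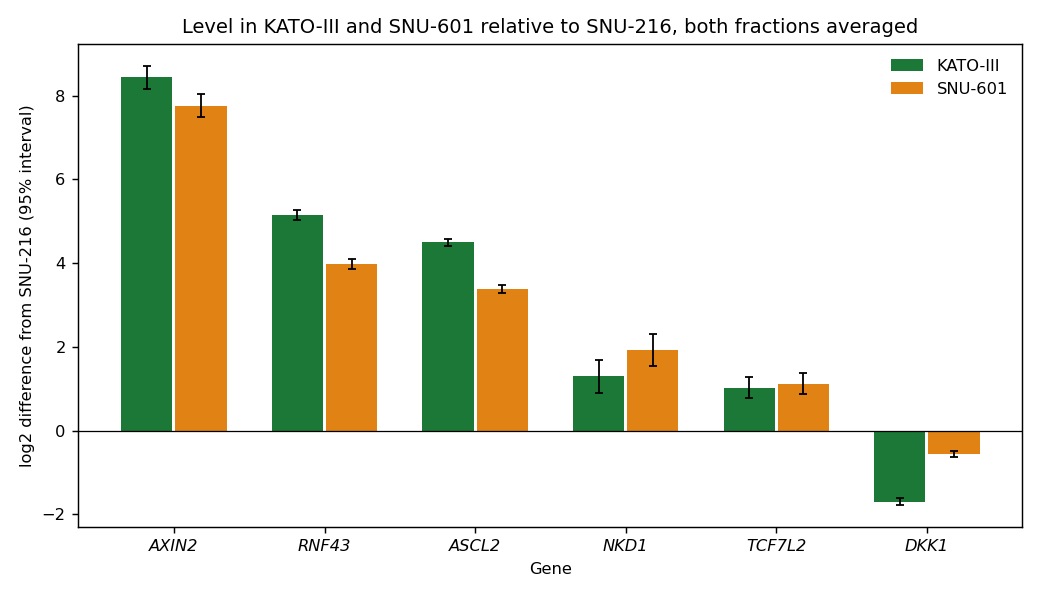
Log2 difference of KATO-III and of SNU-601 from SNU-216 (y axis), averaged over both CD133 fractions, for the 6 genes above the floor in more than 1 population (x axis). Bars start at 0, where the level equals that of SNU-216, error bars are 95% intervals from the limma fit over 12 arrays, and the bars of AXIN2, RNF43 and NKD1 are lower bounds in size because arrays were at the floor. AXIN2 reaches 8.44 in KATO-III and is at least 217-fold higher in SNU-601, whereas DKK1 lies below 0 in both lines.

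Read over the lines, 4 target genes and TCF7L2 were higher in KATO-III and SNU-601 than in SNU-216, and DKK1 was lower. All 6 genes above the floor in more than 1 population differed between KATO-III and SNU-216, where 62.0% of all genes tested did, and all 6 between SNU-216 and SNU-601, where 56.5% did. Between KATO-III and SNU-601 5 of 6 differed, against 58.6% of all genes. TCF7L1 was also called against SNU-216, which its filter and the floor decided, and it is left out of these counts. The shares of all genes are without this restriction, and no share with it was computed. For RNF43 and NKD1, under the floor on every SNU-216 array, the filter and the floor largely decided the calls against SNU-216 as well. The same holds for AXIN2, above the floor on 1 SNU-216 array. TCF7L2, ASCL2 and DKK1, above the floor on all arrays, were each called in every comparison with SNU-216. The sizes against SNU-216 depend on the floor where SNU-216 was under it: over the other settings tried, the log2 difference from KATO-III was 6.89 to 9.21 for AXIN2, 3.53 to 6.17 for RNF43 and 1.09 to 2.33 for NKD1. For SNU-216 minus SNU-601 it was -8.53 to -6.22, -5.01 to -2.37 and -2.95 to -0.46, and each was called wherever it was tested.

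**Figure D3:**
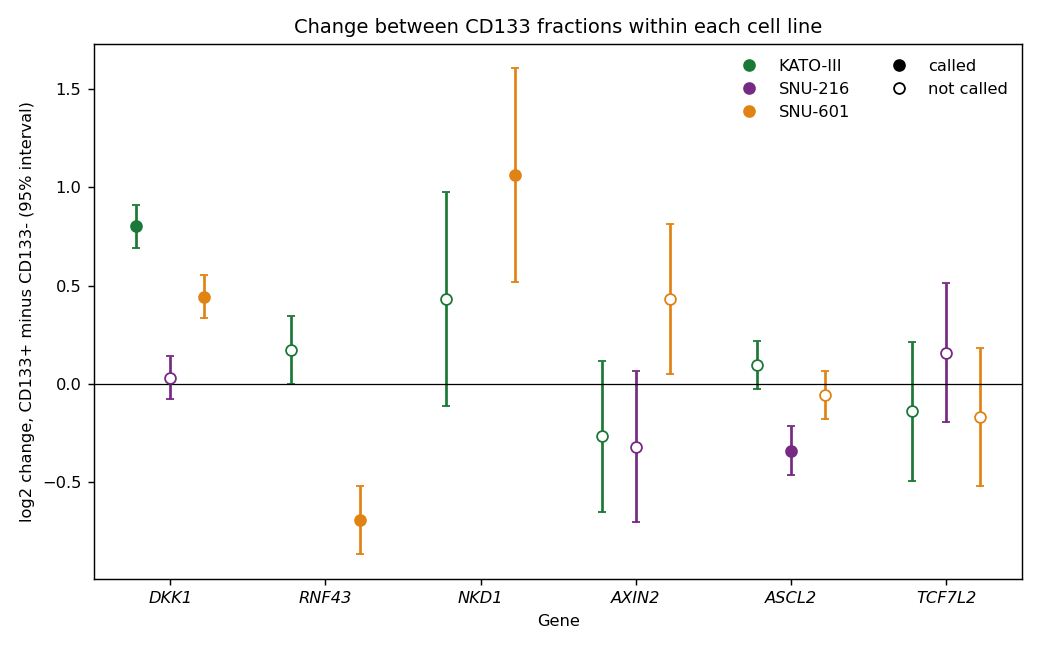
Log2 change from CD133- to CD133+ cells (y axis) of 6 genes above the floor in more than 1 population (x axis) within KATO-III, SNU-216 and SNU-601, with 95% intervals from the limma fit. Filled points passed an adjusted p of 0.05, open points did not, and a line in which all 4 arrays were at the floor has no point. DKK1 rose in 2 lines and RNF43 fell in SNU-601 by 0.69.

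The genes called between the CD133 fractions varied from line to line. In KATO-III 1 was called (DKK1), where 39.3% of all genes tested were. In SNU-216 2 were called, ASCL2 and TCF7L1, against 28.6%, and TCF7L1 could only differ there. In SNU-601 3 were called (DKK1, NKD1 and RNF43), against 16.4%. None was called in opposite directions in different lines, as 10.9% of all genes tested were. Among the 6 genes above the floor in more than 1 population, the F-test for a difference of the change between the lines called 4, against 44.4% of all genes: DKK1 (adjusted p = 0.000112), RNF43 (0.000568), ASCL2 (0.00438) and AXIN2 (0.0483). It did not call NKD1 (0.0747) or TCF7L2. The share of 44.4% is over all genes tested and not only those above the floor in more than 1 population. For RNF43 and NKD1 the change in SNU-216 enters this test as 0, since all arrays there were at the floor. The difference of KATO-III minus SNU-601 alone was called for RNF43 and DKK1, against 30.1% of all genes, and for 4 genes with a floor of 100, AXIN2 and NKD1 (adjusted p = 0.000279) being added.

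Over the 3 lines together, DKK1 was the only one called, against 4.73% of all genes tested. Its log2 change with cell line as a block was 0.43 (SE 0.103, adjusted p = 0.0409). The call was lost in 9 of 12 fits without a single array, namely without any KATO-III or SNU-601 array or without SNU-216 CD133+ replicate 1, with adjusted p from 0.0397 to 0.107 over the 12 fits. It was also lost when the 2 arrays of a population were averaged first (adjusted p = 0.796). For the others the log2 changes were 0.50 for NKD1 (adjusted p = 0.138), -0.17 for RNF43 (0.437), -0.10 for ASCL2 (0.404), -0.05 for AXIN2 (0.842) and -0.05 for TCF7L2 (0.806). By the signal-to-noise ratio (SNR), the difference of the means of 6 CD133+ and 6 CD133- arrays over the sum of their SDs, 0 of 10 genes were past 1 or -1, as 0.960% of all genes were. The SNR of DKK1 was 0.222 and that of NKD1 0.273, and the SDs in it hold the differences between the lines.

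Most proliferation markers rose in the lines in which DKK1 rose, and some of them in SNU-216. Of 8 such markers (MKI67, TOP2A, CDC2, CCNB1, CCNA2, BUB1, PCNA and MCM2), 6 rose in CD133+ cells of KATO-III, 3 in SNU-216 and 5 in SNU-601, against 39.3, 28.6 and 16.4% of all genes called in either direction, and 0 fell. MKI67 (-0.31 in KATO-III) and MCM2 were not called in any line. The summed intensity of the 8 was 30010 to 31110 in KATO-III CD133+ cells and 19385 to 19970 in CD133- cells, 25306 to 25371 against 19027 to 19201 in SNU-601, and 34305 to 36040 against 30619 to 30715 in SNU-216. None of the 8 was at the floor on all arrays. Their part in the changes of DKK1, NKD1 and RNF43 was not tested. Markers of other cells moved as well. Of 9 stromal markers, 1 rose (COL1A1, by 0.84 on the log2 scale) and 1 fell (LUM, by 3.31) in CD133+ cells of KATO-III, with summed intensities of 117 to 196 against 791 to 832, and 1 rose in SNU-216 (LUM, by 0.90). Of 8 immune markers, LYZ rose and CD14 fell in KATO-III, and CD68 fell in each line, by 1.36, 1.13 and 0.46 on the log2 scale in KATO-III, SNU-216 and SNU-601, and their summed intensity was 8023 to 8346 against 5826 to 6052 in KATO-III, 214 to 233 against 434 to 484 in SNU-216, and 10300.2 to 10347 against 10999 to 11701 in SNU-601. The epithelial marker CDH1, which binds beta-catenin at cell junctions, fell in KATO-III (-0.70) and SNU-601 (-0.25) and rose in SNU-216 (0.30). KRT18 fell in SNU-216 (-0.39), and TACSTD1, a former symbol of EPCAM, rose by 0.11 in KATO-III and fell by 0.13 in SNU-216. The row named EPCAM had log2 changes of -0.13 in KATO-III (adjusted p = 0.176) and 0.01 in SNU-216, neither of them called. The part of these markers in the changes was not tested either.

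The rest of the pathway was described by 6 lists, from ligands to targets, that do not hold the 10 genes. Their counts in KATO-III, SNU-216 and SNU-601 stand against 39.3, 28.6 and 16.4% of all genes called in either direction. A gene with all arrays of a line at the floor could not be called there. Some called genes passed the filter through 1 line only, among them WNT11, FZD8 and LGR6 in KATO-III and WNT4 and FZD9 in SNU-216. Such genes could only differ in that line. Of Wnt ligands and secretion factors 15 of 21 with a row were tested, and 4 rose and 1 fell in CD133+ cells of KATO-III, 1 rose and 5 fell in SNU-216, and 1 rose and 0 fell in SNU-601. The ligand WNT10A had intensities of 122 and 107 against 69.8 and 87.3 in KATO-III, 1136 and 1178 against 3088 and 3188 in SNU-216, and 1171 and 1116 against 788 and 898 in SNU-601, CD133+ first. WNT10A thus rose in KATO-III (log2 change 0.55) and SNU-601 (0.44) and fell in SNU-216 (-1.44, adjusted p = 4.37e-05). WNT5B, a ligand mainly of noncanonical signaling, fell in KATO-III (-0.34) and SNU-216 (-0.48), with 0.18 in SNU-601 (adjusted p = 0.378). Between the lines, 2 tested ligand genes were higher and 8 lower in KATO-III than in SNU-216. In SNU-216 against SNU-601, 8 were higher and 2 lower. Of all genes tested, 62.0% and 56.5% differed in these comparisons. WNT4, WNT5A, WNT6 and WNT7A were at the floor in KATO-III and SNU-601, so that they could only be higher in SNU-216.

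Of the receptors and the R-spondin axis 20 were tested, with 3 up and 3 down in KATO-III, 7 up and 2 down in SNU-216, and 4 up and 1 down in SNU-601, against the same 39.3, 28.6 and 16.4% of all genes. ROR1, a receptor tyrosine kinase for WNT5A, had intensities of 224 and 252 against 161 and 212 in KATO-III, 388 and 412 against 242 and 231 in SNU-216, and 164 and 179 against 117 and 124 in SNU-601. Its CD133+ arrays were above the CD133- arrays in each line. ROR1 rose in SNU-216 (0.76) and SNU-601 (0.51), with 0.36 in KATO-III (adjusted p = 0.0695), and over the lines by 0.54 (SE 0.109, adjusted p = 0.0245). The fit over the lines counts the 2 arrays of a population as separate, and the ROR1 call was not checked with populations averaged. The Frizzled receptor FZD2 fell in KATO-III (-0.34) and SNU-216 (-0.58) and rose in SNU-601 (0.65).

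The destruction complex and Dishevelled genes, of which 19 were tested, fell more often than they rose in KATO-III and SNU-216, with 7 down and 3 up in the first, 8 down and 3 up in the other, and 2 each way in SNU-601. Over all genes tested 4156 fell and 3761 rose in KATO-III, and 2817 fell and 2945 rose in SNU-216. The list's median log2 change was -0.20 in KATO-III, -0.10 in SNU-216 and -0.10 in SNU-601. Over all genes tested it was 0 in each line, but genes with all arrays of that line at the floor enter as 0. Every array exceeded the floor for 14 of the 19 listed genes, but for only 11674 of all 20147. The median of 0 is therefore no like-for-like baseline, and a shift of this list was not tested. DVL3, a Dishevelled protein that relays the receptor signal, fell in KATO-III (-0.64) and SNU-601 (-0.54) and rose in SNU-216 (0.45), whereas its relative DVL2 rose in KATO-III (0.38) and fell in SNU-216 (-0.61), with -0.21 in SNU-601 (adjusted p = 0.0834). In this list 6 genes were called in opposite directions in different lines, against 10.9% of all genes.

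Among 20 tested nuclear cofactors of the TCF/LEF factors, 7 rose and 7 fell in KATO-III, 5 rose and 6 fell in SNU-216, and 2 rose and 7 fell in SNU-601, against 39.3, 28.6 and 16.4% of all genes called, and 8 were called in opposite directions, against 10.9%. The Groucho corepressor TLE2 fell in SNU-216 from 133 and 106 in CD133- cells to 33.0 and 32.7 in CD133+ cells, at the edge of the floor (log2 change -1.85), and rose in SNU-601 from 39.3 and 35.6 to 74.6 and 64.7 (0.89). CHD8, a chromatin remodeler that binds beta-catenin, fell in KATO-III (-0.99) and SNU-601 (-0.45), with 0.09 in SNU-216 (adjusted p = 0.664).

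Of 10 tested antagonists other than DKK1 and SFRP1, 1 rose (APCDD1, 0.58) and 2 fell (DACT3, -0.82, and NKD2, -0.43) in KATO-III, 2 rose in SNU-601 (DKK3, 0.50, and KREMEN1, 0.43), and none was called in SNU-216. These 5 are named after their values were seen, since no antagonist met the rule for naming. The other Wnt targets, 22 tested, had 5 up and 6 down in KATO-III, 3 up and 4 down in SNU-216, and 7 up and 1 down in SNU-601, with 39.3, 28.6 and 16.4% of all genes called, and 6 were called in opposite directions, against 10.9%. PLAUR, the urokinase receptor, fell in KATO-III (-1.47) from 404 and 421 to 144 and 154, fell in SNU-216 (-0.85) and rose in SNU-601 (0.25). JUN, a subunit of the AP-1 transcription factor, fell in KATO-III (-1.49) from 8306 and 7916 to 2883 and 2897 and rose in SNU-601 (0.32), with 0.11 in SNU-216 (adjusted p = 0.158). Over the 3 lines together, the receptors FZD6 (log2 change 0.94) and ROR1, the corepressor subunit TBL1X (0.75) and the target SOX4 (0.24) rose, the beta-catenin kinase GSK3B (-0.31) and the repressor HBP1 (-0.38) fell, and no ligand or antagonist was called. All but ROR1 are named here because these 6 were the only calls among 106 genes tested, against 4.73% of all genes. FZD6 was at the floor in both fractions of SNU-601, and TBL1X had a log2 change of 0.03 there (adjusted p = 0.995). The 6 calls count the 2 arrays of a population as separate, and they were not checked with populations averaged.

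**Figure D4:**
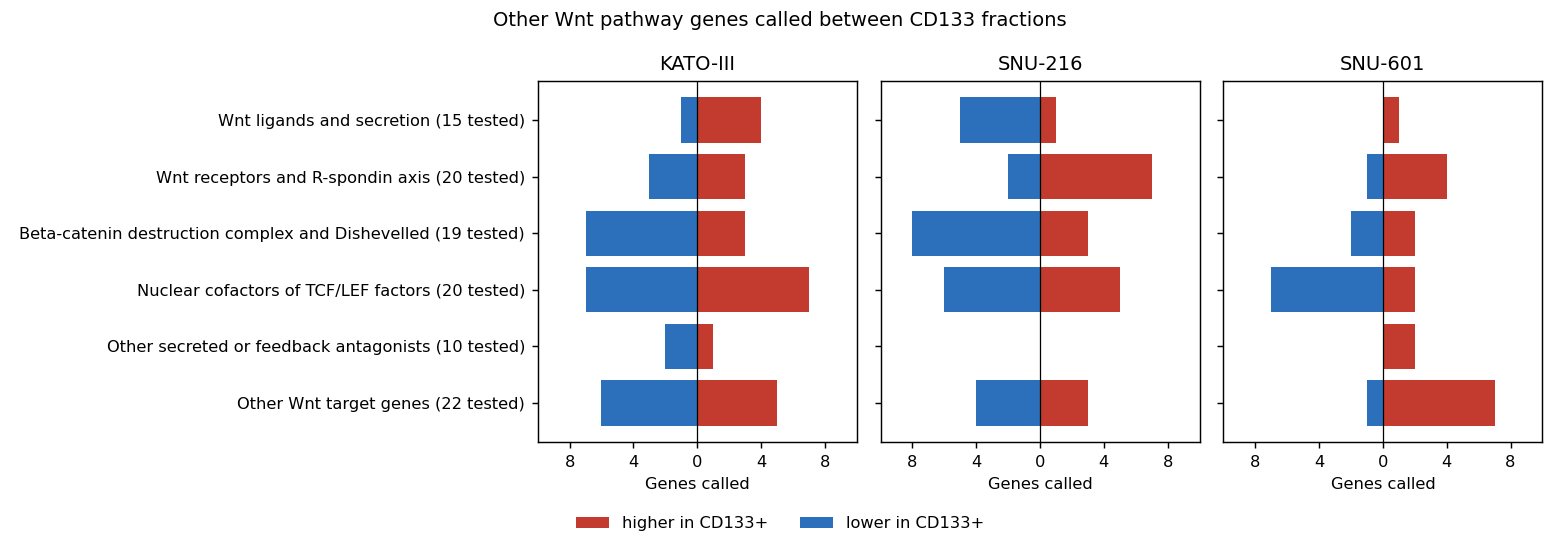
Number of genes called higher (right of 0) or lower (left of 0) in CD133+ than in CD133- cells (x axis) in 6 lists of other Wnt pathway genes (y axis, with the number tested), for each cell line. In SNU-216 5 ligand genes fell and 1 rose and 7 receptor genes rose and 2 fell, and in SNU-601 7 targets rose and 1 fell. A gene with all arrays of a line at the floor could not be called in that line.

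The genes whose levels over the 6 populations were most like those of the 3 genes measured on all arrays were found by Pearson's r of the mean log2 intensity, among 8453 genes above the floor on all arrays. They were AMOT (r = 0.999) and WBP5 (0.998) for TCF7L2, HS.370359 and CAMK1 (both 0.997) for ASCL2, and SETD4 (0.995) and PSMA1 (0.993) for DKK1. With 6 populations of 3 lines as points, these values mostly describe the order of the lines.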

How the data were processed

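RNA of CD133+ and CD133- cells from 3 GC cell lines was hybridized to 12 Illumina HT-12 v3 arrays. The intensities, as deposited by the authors, were quantile-normalized, linear and background-subtracted, with 1 row for each symbol. BeadStudio stands in the submitters' processing notes, and no version or probe summary is given in the sources used here. Of all values 32.1% were at or below 0. The arrays were grouped by their labels.

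Values under 32.7 were set to this floor, and log2 was taken. The 20147 genes (58.2%) that exceeded it on 2 or more arrays entered the fits of limma 3.58.1 (R 4.3.3), with a mean-variance trend and an adjusted p of 0.05. Within-line, interaction and line contrasts came from 1 fit with a mean for each population (6 residual degrees of freedom), and the contrast over lines from a fit with line as a block (8). In the fit with population means the error therefore comes from the arrays of the same population (median SD 0.13 on the log2 scale), and may be technical. In the fit over lines the error also holds the differences of the CD133 change between lines, and the 2 arrays of a population count as separate. Promoters were searched in Python 3.11.15, and SNRs were computed in R. The fits were tested on simulated data.

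The 10 genes, the lists and the tests were chosen with earlier results of these data known. Of each other list, the text names the 2 genes with the largest mean absolute change among those above the floor on all arrays and called in at least 1 line, and no antagonist qualified. Genes like a member were the 2 of highest r among those with an SD over populations of at least 0.3. Floors of 16 and 100, an offset of 100, repeated quantile normalization, other filters, no trend, a replicate block, averaged or random populations and leaving out each array were the alternatives. The result of 1 marker is not reported here.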

Additional observations from a re-analysis of the deposited data

Results flagged for a closer look

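A change with the CD133 fraction that was unequal among the lines was called for 4 of the 6 genes above the floor in more than 1 population, by limma's F-test of the interaction, and 44.4% of all genes tested were called by it. The adjusted p was 0.000112 for DKK1, which rose in KATO-III and SNU-601 and had a log2 change of 0.03 in SNU-216. For RNF43 it was 0.000568, with log2 changes of 0.17 in KATO-III and -0.69 in SNU-601 and no signal above the floor in SNU-216. For ASCL2 it was 0.00438, with a fall in SNU-216 and no call in the others. For AXIN2 it was 0.0483, with log2 changes of -0.27, -0.32 and 0.43 in KATO-III, SNU-216 and SNU-601, none of them called, and the value in SNU-216 rests on 1 array above the floor.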

How the results depend on the processing

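Counts of the 10 genes called moved as follows. With a floor of 16, TCF7 entered the tests through its KATO-III CD133+ arrays alone (52.0 and 29.7), and it is the gene added within KATO-III. Within KATO-III 1 gene was called, 2 with a floor of 16, 3 with a floor of 100, 2 with no filter and 1 to 2 without a single array. Within SNU-216 2 were called, TCF7L1 among them, 1 with a floor of 100 and 2 to 3 without a single array, AXIN2 being added without CD133- replicate 1. Within SNU-601 3 were called, and 2 to 4 without a single array. The F-test called 5 with TCF7L1, and 4 to 6 without a single array. Testing only genes above the floor on all arrays left 3 of them in the test, of which 1 was called within SNU-216, 1 within SNU-601, 2 by the F-test for a difference between lines, and 3, 2 and 3 between KATO-III and SNU-216, KATO-III and SNU-601, and SNU-216 and SNU-601. Over the 3 lines 1 gene, DKK1, was called, and 0 with no filter (adjusted p = 0.114), no trend (0.0615), the replicate block (0.0645), averaged populations (0.796) or populations as a random block (0.218), and 0 to 1 without a single array. The genes past an SNR of 1 or -1 were 0, and 0 to 1 without a single array, the 1 appearing without KATO-III CD133+ replicate 1 or SNU-216 CD133- replicate 2. The AXIN2 change over the lines was -0.05, turned to 0.0549 with a floor of 100, and was -0.116 to 0.0618 without a single array. The DKK1 change in SNU-216 was -0.0207 to 0.0849 without a single array, that of TCF7L2 in SNU-216 -0.0916 to 0.411, and the TCF7L2 difference of KATO-III minus SNU-601 -0.0768 to 0.133. The causes were not tested. The F-test call of AXIN2 was lost with a floor of 16 (0.245), repeated quantile normalization (0.0506), no filter (0.171) and no trend (0.0731). NKD1 gained an F-test call with a floor of 100 (0.000207), with the offset (0.0465) and without SNU-601 CD133- replicate 1 (0.00756). The alternative values for single genes were tallied with the counts of genes called for KATO-III minus SNU-601. Of these, 1131 stayed the same, 33 lost a call, 19 gained one, 8 turned direction and 2 counts moved. For single genes, the same means the same direction and side of the threshold, or the side alone for the F-test, which has no direction.

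Replicate numbers did not pair the arrays, since the replicate differences of 2 populations correlated at -0.0158 to 0.0681 and 0 of 15 pairs exceeded 0.1. Signals close to the floor limit TCF7, LEF1, SFRP1, TCF7L1 and NKD1.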

Other observations

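Among the other Wnt genes, 3 were singled out after their values were seen. LGR5, an R-spondin receptor and stem cell marker, rose in CD133+ cells of KATO-III (log2 change 0.68, adjusted p = 0.000873) and SNU-601 (0.70, adjusted p = 0.00287) by limma. In SNU-216 its fractions were at the floor. The Frizzled receptor FZD6 rose in KATO-III (1.34, adjusted p = 7.05e-05) and SNU-216 (1.47, adjusted p = 8.70e-05), and both its fractions were at the floor in SNU-601. The matrix metalloproteinase MMP7, a Wnt target, fell in KATO-III (-1.18, adjusted p = 8.02e-05) and rose in SNU-601 (1.89, adjusted p = 8.40e-05), and it was at the floor in SNU-216.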
